A study of Homo sapiens with 32 samples.

Results

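The loops described here were called in untreated HEK293 cells of both a wild-type and an eGFP-YAP line, and were not called again in the same line after 1 h of sorbitol. They were chosen by the loop calls themselves: a wild-type control loop was taken when no wild-type sorbitol loop lay on the same chromosome with both anchors within 10 kb, and when it matched, by the same distance, an eGFP-YAP control loop that in turn had no match in the eGFP-YAP sorbitol list. This rule gave 4692 loops of the 15180 in the wild-type control list, 30.9% (the percentage that the rule calls, from which nothing is read). The 4 lists hold 45629 loops in all. "Lost" is used below for loops chosen in this way and means that no loop was called within the matching distance, not that contact was absent.

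Loops were called on contact maps from in situ Hi-C, an assay that ligates DNA ends lying close together in the nucleus and sequences the junctions. HEK293 is a human embryonic kidney cell line. The labels give, for the conditions named by the lists, wild-type HEK293 cells, untreated (3 replicates) or with sorbitol at 200 mM for 1 h (3 replicates), and HEK293 cells of the genotype eGFP-YAP, untreated (4 replicates) or with the same sorbitol dose and time (4 replicates). Which samples went into each list is not stated, and the series also has a time course labelled wild type with untreated and 1 h sorbitol samples. The growth protocol in the labels speaks of HEK293T cells, and the design text describes serum starvation before sorbitol for the eGFP-YAP cells, while the labels call their controls untreated. How the eGFP-YAP line was made, and whether it is a single clone, is not given in the sources used here. Each condition has 1 loop list with no replicate columns, so no difference below has a replicate check, no test between conditions was made, and the lists hold no expression values with which to check the identity of the cells.

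The lists differ in length: 15180 loops in wild-type control, 5906 in wild-type sorbitol, 18966 in eGFP-YAP control and 5577 in eGFP-YAP sorbitol. The sequencing depth behind each list is unknown, so a shorter list from fewer contacts or a stricter call and a shorter list from the treatment cannot be told apart. The list names also carry a different source name for each line, so line and source cannot be told apart either. Percentages are given with Wilson 95% intervals and medians with 95% intervals from order statistics. Both cover counting error only, and both treat loops as independent although neighbouring loops share anchors.

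Many loops in human cells form when cohesin, a ring-shaped complex, reels in DNA until it is halted by CTCF, a zinc finger protein bound to DNA. CTCF halts cohesin mainly when its motif points towards the approaching ring, so the motifs at the anchors of such a loop typically face each other, an arrangement called convergent. Sorbitol in the medium draws water out of cells, and YAP is a transcriptional co-activator of the Hippo pathway that binds DNA through TEAD factors and gathers into nuclear condensates under hyperosmotic stress.

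The sequences below show the motif pair of the 5 convergent lost loops that ranked highest by the mean of their score percentiles in both control lists, and that of the highest-ranked convergent loop called in all 4 lists for comparison. Each is read from hg38, 5′ to 3′ on the strand that carries the motif, with the match to the CTCF consensus (at most 1 mismatch over 14 bases) in capitals and 23 bases on each side in lower case. The left anchor is the one with the lower coordinate. Its motif lies on the plus strand and that of the right anchor on the minus strand, so that both point into the loop.
Lost loop on chromosome 7, left anchor, plus strand, chr7:72824167-72824226: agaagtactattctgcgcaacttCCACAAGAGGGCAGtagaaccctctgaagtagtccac
Lost loop on chromosome 7, right anchor, minus strand, chr7:72915187-72915246: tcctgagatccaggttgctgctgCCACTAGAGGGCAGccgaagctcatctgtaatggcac
Lost loop on chromosome 4, left anchor, plus strand, chr4:21790603-21790662: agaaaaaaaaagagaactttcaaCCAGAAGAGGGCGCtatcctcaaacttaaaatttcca
Lost loop on chromosome 4, right anchor, minus strand, chr4:22395693-22395752: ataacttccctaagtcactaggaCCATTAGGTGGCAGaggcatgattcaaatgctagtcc
Lost loop on chromosome 3, left anchor, plus strand, chr3:195271648-195271707: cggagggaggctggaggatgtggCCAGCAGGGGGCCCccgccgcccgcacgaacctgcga
Lost loop on chromosome 3, right anchor, minus strand, chr3:195522412-195522471: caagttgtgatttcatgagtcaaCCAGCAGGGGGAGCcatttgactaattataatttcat
Lost loop on chromosome 19, left anchor, plus strand, chr19:47963313-47963372: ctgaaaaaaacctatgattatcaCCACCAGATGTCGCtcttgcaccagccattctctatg
Lost loop on chromosome 19, right anchor, minus strand, chr19:48152628-48152687: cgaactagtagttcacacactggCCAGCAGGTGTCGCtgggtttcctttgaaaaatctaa
Lost loop on chromosome X, left anchor, plus strand, chrX:49915788-49915847: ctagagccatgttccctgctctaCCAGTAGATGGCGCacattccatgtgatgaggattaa
Lost loop on chromosome X, right anchor, minus strand, chrX:50204608-50204667: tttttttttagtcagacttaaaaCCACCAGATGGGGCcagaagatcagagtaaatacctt
Loop of all 4 lists on chromosome 10, left anchor, plus strand, chr10:123583807-123583866: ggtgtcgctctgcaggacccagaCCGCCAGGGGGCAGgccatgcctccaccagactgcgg
Loop of all 4 lists on chromosome 10, right anchor, minus strand, chr10:123967828-123967887: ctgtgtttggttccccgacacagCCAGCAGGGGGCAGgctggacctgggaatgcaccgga

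The chromosome 7 loop had the highest rank of the convergent lost loops ranked in this way. It joined chr7:72820001-72825000, inside TYW1B, to chr7:72915001-72920000, inside POM121, which encodes a membrane protein of the nuclear pore. Its span was 95 kb, and the eGFP-YAP control list holds it at the same anchor bins. Its peak score, a value of the authors' loop caller with no fixed scale, was 7.75 in wild-type control (percentile 99.8 of that list) and 12.4 in eGFP-YAP control (percentile 99.7). Neither of its anchors had a sorbitol anchor of either line within 10 kb. Both motifs shown above lie in introns, the left with 1 mismatch to the consensus and the right with none.

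The chromosome 4 loop spanned 605 kb from chr4:21790001-21795000 in KCNIP4, which encodes a potassium channel interacting protein, to chr4:22395001-22400000 in ADGRA3, an adhesion G protein-coupled receptor gene. Its score percentiles were 98.5 in wild-type and 99.6 in eGFP-YAP control, and neither anchor was near a sorbitol anchor. The chromosome 3 loop spanned 250 kb from the start of XXYLT1, which encodes a xylosyltransferase, to an intron of PPP1R2, which encodes an inhibitor of protein phosphatase 1. Its left anchor lay within 10 kb of a sorbitol anchor in both lines, although the loop itself was in neither sorbitol list. The chromosome 19 loop spanned 190 kb from an anchor outside protein-coding genes to an intron of LIG1, which encodes the DNA ligase that joins Okazaki fragments. The X chromosome loop spanned 285 kb and its right anchor held the starts of AKAP4, a gene for an anchoring protein of the sperm tail, and CCNB3, a cyclin gene.

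The next 3 convergent loops by rank were an 85 kb loop with both anchors in CAMTA1, which encodes a transcription activator, a 330 kb loop from AMPD3, which encodes an AMP deaminase, and a 545 kb loop from KIF5C, which encodes a kinesin heavy chain. Of these 8 loops, 3 had neither anchor near an anchor of either sorbitol list, and the other 5 had 1 such anchor. In the other class shown, the chromosome 10 loop of all 4 lists spanned 385 kb with score percentiles of 99.2 and 99.9. It too was chosen for its high rank, so nothing is read from the likeness of its scores to those of the lost loops named here.

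The lost loops were set beside the fate of every wild-type control loop. Of the 15180, 13994 had no sorbitol loop within the matching distance (92.2%), and of the 18966 eGFP-YAP control loops 17206 had none (90.7%). The 13994 divide into the 4692 lost in both lines, 605 whose eGFP-YAP partner was called again with sorbitol, and 8697 with no partner in the eGFP-YAP control list. The 1186 wild-type loops called again with sorbitol divide into 395 that are in all 4 lists and 791 that are not. Some of the 791 had an eGFP-YAP control partner and some did not. On the eGFP-YAP side the lost loops correspond to 4694 loops, since 3 lost loops had more than 1 partner.

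Positions of a lost loop in the wild-type and eGFP-YAP control lists were mostly 1 bin apart at an anchor. The larger of the differences at both anchors was 0 kb in 745 loops (15.9%), 5 kb in 2477 (52.8%) and 10 kb in 1470 (31.3%). The left anchor was in the same bin in 39.2% of loops and the right anchor in 38.7%. Shifts to either side were about as frequent: the wild-type left anchor lay 5 kb to the left of the eGFP-YAP one in 22.0% and 5 kb to the right in 21.4% of loops. The wild-type loop was the shorter in 1745 cases and the longer in 1712.

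The matching distance sets the border of the set. Nearest to it on the inside were 148 lost loops whose closest wild-type sorbitol loop was at 15 kb, with a median span of 217.5 kb and a median score percentile of 72.2. Nearest to it on the outside were 486 control loops with a sorbitol loop at exactly 10 kb, with a median span of 210 kb and a median percentile of 74.4. Some lost loops had a sorbitol loop a little further away: 346 (7.37%) had one within 25 kb in wild type and 778 (16.6%) within 50 kb. For their eGFP-YAP partners the numbers were 239 (5.09%) and 591 (12.6%). Of all 15180 wild-type control loops, 1186 had a sorbitol loop within 10 kb. Counts at 25 kb and 50 kb were made for lost loops only, so nothing is read from them. At their wild-type coordinates, 31 of the 4692 lay within 10 kb of a loop in the eGFP-YAP sorbitol list. Leaving out every loop that matched the other line's sorbitol list at the coordinates of either line left 4600.

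Lost loops spanned 35 kb to 2200 kb, with a median of 205 kb (200 to 210) and quartiles at 125 kb and 350 kb. The median was 240 kb (235 to 240) over all wild-type control loops and 260 kb (255 to 265) for the loops lost in wild type that had no eGFP-YAP partner. It was 220 kb (200 to 240) for loops of all 4 lists, an interval that meets that of the lost loops. The 731 loops gained in both lines, called with sorbitol in each line and in neither control, had a median of 160 kb (150 to 175). With at most 1 loop per chromosome, and none from chromosome 8 or with unsequenced bases, the 3 longest were on chromosomes 21 (1895 kb), 3 (1890 kb) and 2 (1855 kb). No protein-coding gene overlapped any of their anchors.

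**Figure D1:**
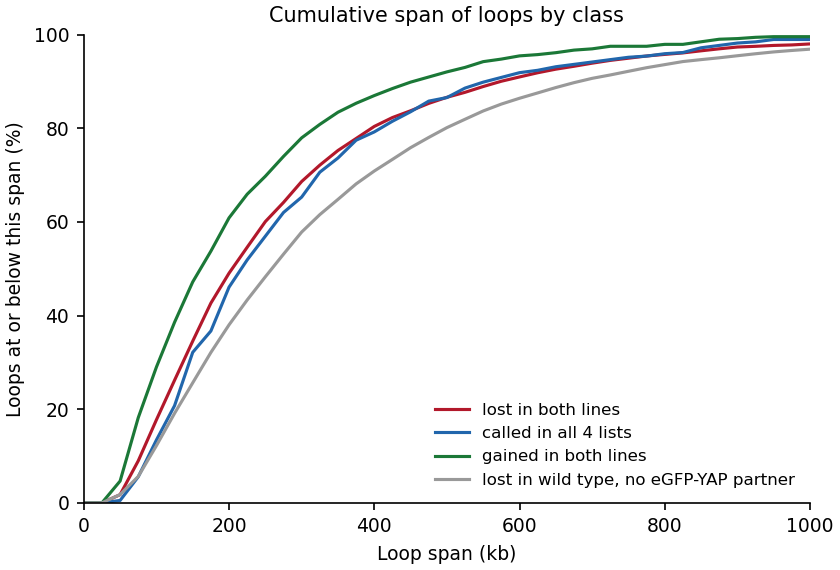
Cumulative percentage of loops (vertical axis) at or below each span in kb (horizontal axis, linear, shown to 1000 kb), 1 line per class. Lost loops reach 50% at 205 kb, between the gained loops at 160 kb and the wild-type losses without an eGFP-YAP partner at 260 kb.

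The share of control loops that were lost in both lines differed by span. It was 38.8% (36.7 to 41.0) of the 1925 wild-type control loops under 100 kb and 22.9% (19.0 to 27.2) of the 402 loops of 1000 kb or more. These shares depend on how many control loops of each span had an eGFP-YAP partner. Among loops that had one, 81.7% (79.1 to 84.1) under 100 kb and 73.6% (65.3 to 80.5) of 1000 kb or more were lost in both lines.

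By peak score, the lost loops lay above the middle of both control lists. Their median percentile was 62.6 (quartiles 37.3 and 81.0) in wild type and 62.0 (37.5 and 81.7) in eGFP-YAP control, and 90.3 (87.7 to 91.7) for loops of all 4 lists. The wild-type control list was divided into 5 equal parts by score. From the lowest to the highest part, 554, 724, 928, 1237 and 1249 loops were lost in both lines. As a share of control loops with an eGFP-YAP partner, however, the lost loops made up 88.5% (85.8 to 90.8) in the lowest part and 61.1% (59.0 to 63.2) in the highest. The rule used these calls, so the shares describe the set and are not tested.

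Anchors of lost loops were rich in the CTCF motif. Both strands were scanned, 1 mismatch was tolerated, and a match marks sequence, not a bound protein. It was present in 3018 of 9384 anchors, 32.2% (31.2 to 33.1), against 8.69% of all 581574 sequenced 5 kb bins of the genome. Both anchors held it in 530 loops (11.3%), a single anchor in 1958 (41.7%) and neither in 2204 (47.0%). The share was 24.9% (24.4 to 25.4) over all wild-type control loops and 18.1% (17.5 to 18.7) for losses without an eGFP-YAP partner. Every lost loop has an eGFP-YAP control partner by the rule, while 8697 of the 15180 control loops were losses without one. Every loop of all 4 lists, and every wild-type loss whose eGFP-YAP partner was called again, also has such a partner. The motif shares of these classes, given below, were higher than that of the lost loops. The excess over all control loops is thus not read as a trait of lost loops. How much the partner requirement adds to it was not tested. Loops called again with sorbitol were not alike. The share was 47.1% (43.6 to 50.6) at the 790 anchors of loops in all 4 lists. It was 31.4% (29.2 to 33.7) at the 1582 anchors of the other loops called again in wild type, an interval that includes the lost loops. Unlike the lost loops, however, these other loops include some without an eGFP-YAP partner. The motif share was 42.4% (39.6 to 45.2) for wild-type losses whose eGFP-YAP partner was called again, and 18.1% (16.2 to 20.2) at anchors of gained loops.

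The same lost loops placed at their eGFP-YAP coordinates had the motif at 42.1% of anchors (41.1 to 43.1). At eGFP-YAP coordinates the motif share was 58.2% for loops of all 4 lists and 18.0% for gained loops. The share in lost loops also differed with how closely the positions in both lines matched. Loops with identical anchor bins in both lines had the motif at 52.1% (49.5 to 54.6) of anchors, loops with a 5 kb difference at 32.0% (30.7 to 33.3) and loops with a 10 kb difference at 22.4% (20.9 to 24.0). The loops with identical bins were also shorter, with a median span of 170 kb against 227.5 kb at a 10 kb difference, and had higher scores, with a median wild-type percentile of 72.7 against 54.3.

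Motif orientation was read in 476 lost loops whose anchors each held motifs on a single strand. The motifs converged in 349 of them, 73.3% (69.2 to 77.1), pointed the same way in 112 (23.5%) and pointed apart in 15 (3.15%). Over all wild-type control loops 67.4% (64.4 to 70.2) of 1021 converged. Of the 77 such loops in all 4 lists 81.8% (71.8 to 88.8) converged, an interval that overlaps that of the lost loops. Losses without an eGFP-YAP partner converged in 49.3% (43.7 to 55.0) of 296 loops. Wild-type losses whose eGFP-YAP partner was called again converged in 84.5% (76.0 to 90.4) of 97 loops. This interval overlaps that of the lost loops. As with the motif share, the difference from all control loops is not read as a trait of lost loops. The part of the partner requirement in it was not tested. Only 21 gained loops could be read, and 28.6% (13.8 to 49.96) of them converged. At eGFP-YAP coordinates the convergent share was 52.2% for gained and 78.6% for lost loops, a smaller difference. Anchors can be read singly as well: 85.7% (83.8 to 87.4) of 1443 left anchors of lost loops with motifs on 1 strand had them on the plus strand, and 83.9% (81.9 to 85.7) of 1409 right anchors on the minus strand. These shares were 82.4% and 81.0% over all wild-type control loops, 77.1% and 75.1% for losses without an eGFP-YAP partner, and 54.2% and 52.7% for gained loops.

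**Figure D2:**
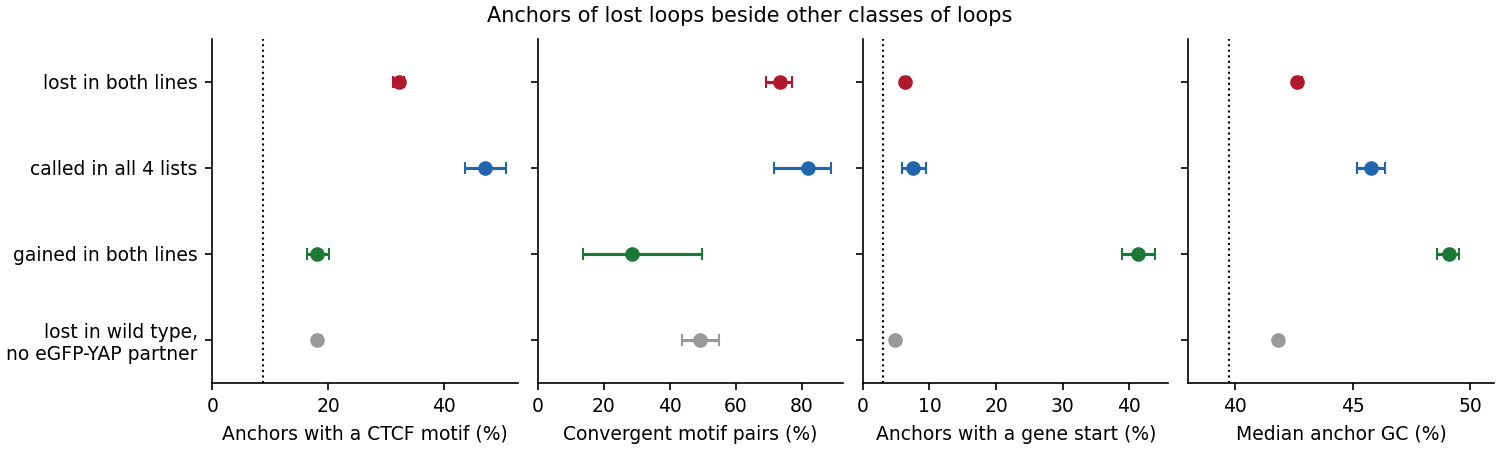
Percentage of anchors with a CTCF motif, percentage of convergent pairs among loops with readable orientation, percentage of anchors with a protein-coding gene start, and median GC content of anchors (horizontal axes) for 4 classes of loops. Points are values, bars are 95% intervals for counting error and dotted lines are the level over all sequenced 5 kb bins; the GC axis starts at 38%. Lost loops lie between loops of all 4 lists and gained loops in motif share (32.2% against 47.1% and 18.1%), and far below gained loops in gene starts (6.36% against 41.4%).

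Motifs were counted bin by bin around the anchors to see how sharply the called position marks them. At the left anchor of lost loops, a motif on the plus strand was present in 27.8% of the called bins, in 17.8% of the bins 5 kb outside the loop and in 14.6% of those 5 kb inside. At 25 kb the shares were 5.07% outside and 4.11% inside. The right anchors mirrored this with minus-strand motifs, in 27.3% of called bins and in 18.0% of bins 5 kb outside. At the eGFP-YAP coordinates the peak was higher and narrower, 37.7% in the called bin of the left anchor and 14.7% in the bin outside.

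Motifs of the opposite strand showed a different profile. Minus-strand motifs around left anchors had no peak in the called bin (5.88%), but were more frequent outside the loop than inside, 7.37% at 25 kb outside against 3.79% at 25 kb inside. Plus-strand motifs around right anchors gave 6.82% at 25 kb outside and 4.18% at 25 kb inside. The flanks outside the lost loops thus held more motifs pointing away from the loop than the flanks inside. This was not particular to lost loops. At the 395 loops of all 4 lists, plus-strand motifs were in 41.5% of called left bins. Their minus-strand motifs around left anchors gave 6.84% at 25 kb outside and 4.30% at 25 kb inside. Plus-strand motifs around their right anchors gave 8.35% and 6.08%. At gained loops the total motif share was 17.2% (14.7 to 20.1) in the called left bin, 16.6% at 25 kb outside and 14.2% at 25 kb inside, without a peak of the size seen at lost loops.

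**Figure D3:**
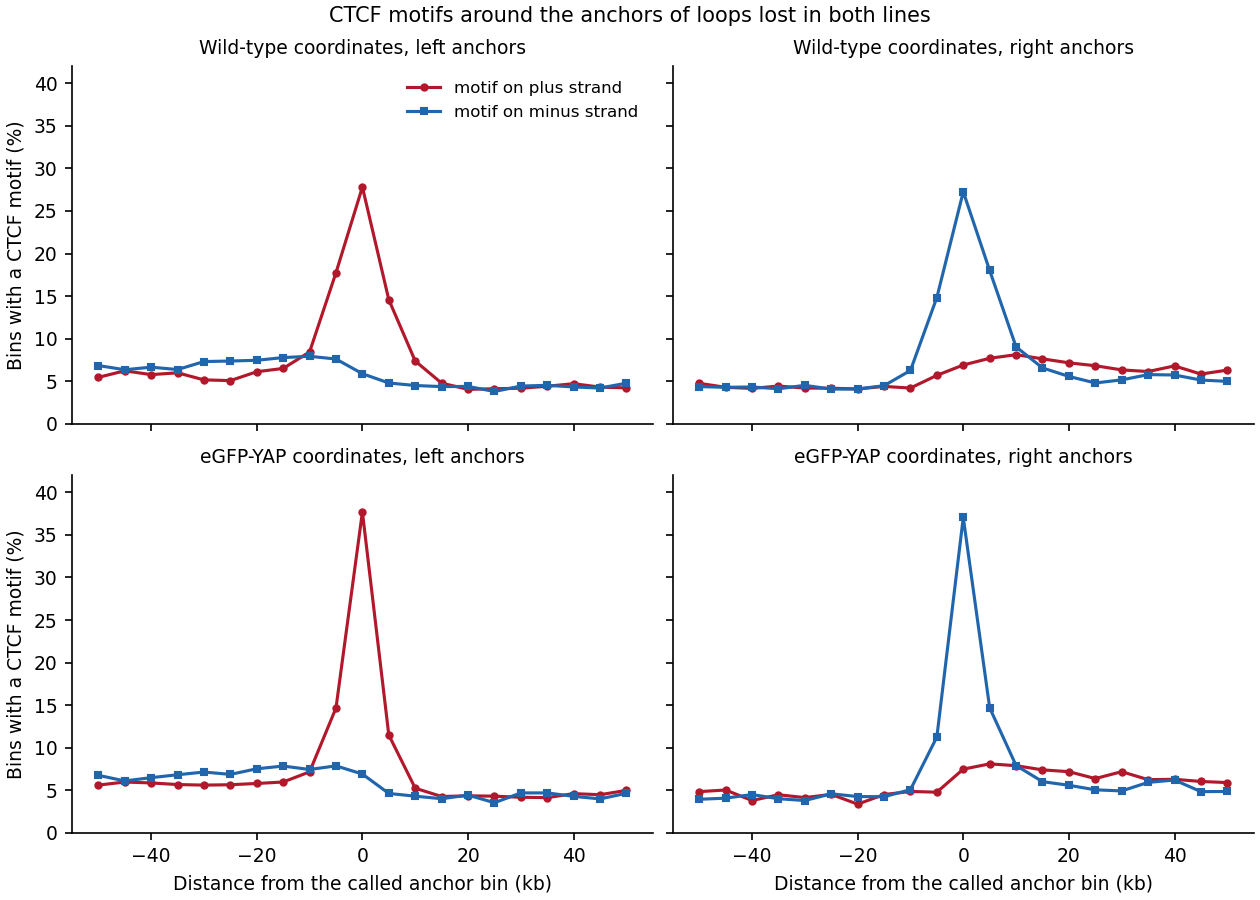
Percentage of 5 kb bins with a CTCF motif on the plus strand (red circles) or minus strand (blue squares) by distance from the called anchor bin in kb, negative to the left, for left and right anchors of the lost loops at wild-type and eGFP-YAP coordinates. Plus-strand motifs peak at left anchors (27.8% and 37.7%) and minus-strand motifs at right anchors, and motifs of the opposite strand are more frequent on the flank outside the loop than inside.

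Because the classes differ in score, motif shares were also set side by side within these 5 parts. In lost loops the share was 26.2% (23.7 to 28.8) in the lowest part, 28.3% in the next, then 29.7% and 32.6%, and 38.4% (36.5 to 40.3) in the highest. In that highest part the 277 loops of all 4 lists had 50.7% (46.6 to 54.9) and losses without an eGFP-YAP partner 22.0% (20.2 to 24.0), so the order of the classes was the same there as over all scores. In the middle part the order of the first pair was the opposite, with 22.6% (13.96 to 34.4) for the 31 loops of all 4 lists, an interval that includes the 29.7% of lost loops. Convergent pairs made up 60.6% of 33 readable lost loops in the lowest part and 81.0% of 174 in the highest. Over all wild-type control loops the motif share had a like gradient, from 18.8% in the lowest part to 35.5% in the highest. By span, the motif share was 41.2% (38.7 to 43.7) in lost loops under 100 kb and 26.6% (24.1 to 29.3) from 500 kb to 1000 kb, against 30.7% and 20.8% over all wild-type control loops.

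**Figure D4:**
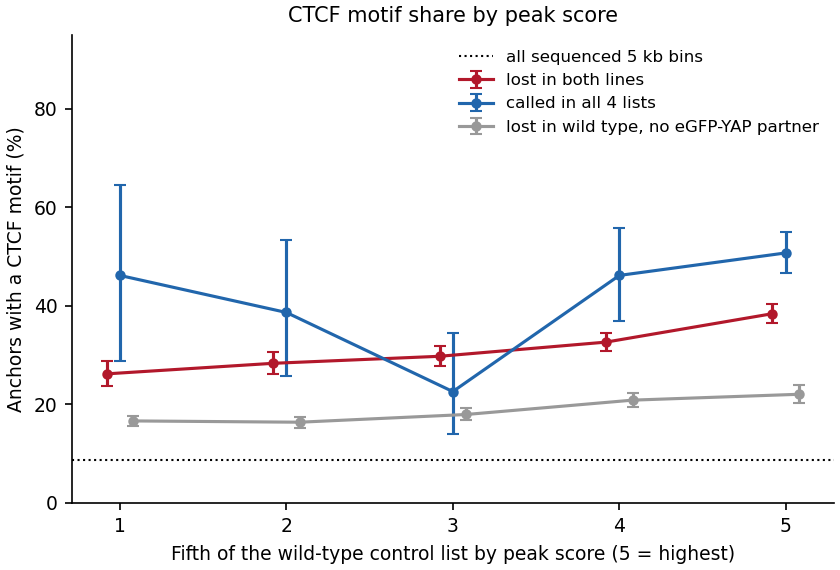
Percentage of anchors with a CTCF motif (vertical axis) by part of the wild-type control list, divided into 5 by peak score (horizontal axis, 5 highest), for lost loops, loops of all 4 lists and wild-type losses without an eGFP-YAP partner. Points are shares, bars Wilson 95% intervals and the dotted line all sequenced 5 kb bins (8.69%). Lost loops go from 26.2% to 38.4%, and the lower 4 parts hold few loops of all 4 lists (13 to 52).

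Gene starts were not common at lost anchors. A protein-coding gene started in 597 of 9384 anchors, 6.36% (5.89 to 6.87), against 3.07% of all 5 kb bins, 5.74% (5.49 to 6.01) over all wild-type control loops and 7.47% (5.83 to 9.51) at loops of all 4 lists. At gained loops the share was 41.4% (38.9 to 43.9). Gene ends lay in 6.21% of lost anchors (bins, 3.11%), and 57.4% of lost anchors overlapped a protein-coding gene (bins, 47.0%). Gene starts were more frequent in short lost loops, 10.0% of anchors under 100 kb and 3.58% from 500 kb to 1000 kb, as they were over all wild-type control loops (10.1% and 3.22%). Of the lost loops, 1154 (24.6%, 23.4 to 25.8) had no gene start between their anchors, against 28.6% (27.9 to 29.3) over all wild-type control loops. In loops of all 4 lists the share was 13.2% (10.2 to 16.9). In the other loops called again in wild type it was 24.1% (21.3 to 27.2). Loops lying wholly inside a single gene numbered 406 (8.65%, 7.88 to 9.49), an interval that overlaps the 9.33% (8.88 to 9.81) over all wild-type control loops. The share was 8.22% (6.50 to 10.3) for the other loops called again in wild type, 4.05% (2.51 to 6.48) of the loops in all 4 lists and 1.37% of gained loops.

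Lost loops that joined a gene start to a gene start numbered 29, 0.618% (0.431 to 0.886), the level over all wild-type control loops (0.626%). The share was 2.03% (1.03 to 3.95) for loops of all 4 lists and 19.8% (17.1 to 22.9) for gained loops. The lost loops named next were ranked under the same limits as the convergent ones, with at most 1 per chromosome. The highest-ranked ran 1265 kb from YARS2, which encodes the mitochondrial tyrosyl-tRNA synthetase, to ALG10, a gene for a glucosyltransferase of N-glycan assembly, with percentiles of 99.9 and 99.8 in the control lists. A 130 kb loop on chromosome 22 joined CCDC188 to RTN4R, the Nogo receptor gene, with percentiles of 99.3 and 98.7. A 115 kb loop on chromosome 9 joined DPP7, a dipeptidyl peptidase gene, to SLC34A3, which encodes a phosphate transporter of the kidney tubule. The 3 that follow in rank had lower percentiles, 68.1 to 83.7: ZNF317 with ZNF846, a pair of zinc finger genes 650 kb apart, PGAP6 with WFIKKN1, and CEBPE, a myeloid transcription factor gene, with RNF212B. The ZNF317 and ZNF846 anchors both lay within 10 kb of sorbitol anchors in both lines.

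In all, 614 protein-coding genes started in an anchor of a lost loop, and 693 in an anchor of a gained loop. Both groups shared 20 genes, 3.26% of the first and 2.89% of the second, close to the 3.47% of all genes that started in a gained anchor and the 3.08% that started in a lost one. Genes of several lists, chosen with results of these data known, were then looked up. Over all 19962 protein-coding genes 614 started in a lost anchor and 1654 (8.29%) in any wild-type control anchor. Of 104 homeobox and other developmental transcription factor genes 11 did (10.6%), and 27 (26.0%) at any wild-type control anchor, so the list stood above all genes at control anchors as a whole. SOX4, a transcription factor gene, lay at the right anchor of a 1030 kb loop from CDKAL1, with percentiles of 86.9 and 97.0. HOXD12, a gene of the limb-patterning HOXD cluster, lay at the right anchor of 3 lost loops, the highest-ranked of 505 kb. HOXC5 was at an anchor of a 170 kb loop, and OSR1, a regulator of early kidney development, at an anchor of 2 loops.

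Of 22 targets of YAP and TEAD, 4 (18.2%) started in a lost anchor and 5 (22.7%) at any wild-type control anchor, against 3.08% and 8.29% of all genes. This list too thus stood above all genes at control anchors as a whole. The 4 were CCN1, which encodes a secreted matrix protein and lay at a 275 kb loop with percentiles of 87.0 and 94.2, AMOTL2, FJX1 and GADD45A. Of 27 genes of osmotic stress and cell volume 1 started in a lost anchor, and 1 at any wild-type control anchor. It was NFAT5, the transcription factor of the response to hypertonicity, at a 165 kb loop with percentiles of 61.2 and 29.2. None of the 25 immediate-early genes started in a lost anchor, and 1 of them started at any wild-type control anchor. Among 19 genes of architectural proteins, STAG1, which encodes a cohesin subunit, and NIPBL, which encodes the cohesin loader, started in lost anchors. Of these 19, 3 started at any wild-type control anchor and 5 in gained anchors. Of 80 ribosomal protein genes 3 started in a lost anchor and 4 at any wild-type control anchor. These lists are small, and nothing particular to any of them is read from their counts.

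A lost loop does not mean that its anchors were without loops after sorbitol. Some other loop of the wild-type sorbitol list had an anchor within 10 kb of 22.7% (21.9 to 23.6) of the lost anchors, and some loop of the eGFP-YAP sorbitol list within 10 kb of 24.0% (23.2 to 24.9), against 7.60% and 7.06% of all bins. Over all wild-type control anchors these shares were 28.3% (27.8 to 28.9) and 27.8% (27.3 to 28.3), and for losses without an eGFP-YAP partner they were 20.9% and 20.3%. The control loops include those called again in wild type, whose anchors lie within 10 kb of a wild-type sorbitol anchor by the matching rule. Lost loops were chosen against such matches, so nothing is read from the higher shares over all control anchors. Of the lost anchors, 12.4% (11.7 to 13.04) lay near anchors of both lists and 65.6% (64.6 to 66.6) near those of neither. Counted by loop in wild type, 277 lost loops (5.90%) had sorbitol anchors at both ends (13.2% over all control loops, which include those called again), 1577 (33.6%) at 1 end and 2838 (60.5%) at neither. These values come from the lists that chose the loops and are descriptions.

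Among lost anchors, those used again held gene starts more often than those that were not. Only lost anchors were divided in this way, so whether other classes have the same pattern was not tested. Gene starts lay in 11.4% (9.68 to 13.3) of the 1160 lost anchors near anchors of both sorbitol lists, in 7.79% (6.71 to 9.02) of the 2067 near those of 1 list and in 4.94% (4.42 to 5.51) of the 6157 near neither. The CTCF motif was in 37.2% (34.5 to 40.1), 34.8% and 30.3% (29.2 to 31.5), and the median GC content was 45.8%, 44.1% and 41.7%. In wild type, 71.1% (69.1 to 73.0) of the 2131 anchors used again had sorbitol loops running only in the direction of the lost loop, 20.7% only in the opposite direction and 8.21% in both. The sorbitol loop in the same direction was shorter than the lost loop in 36.4% (34.1 to 38.7) of 1690 cases. Directions and lengths were counted for lost loops only, so no other class is set beside them and nothing is read from these shares.

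Lost loops were spread over the genome. Their 9384 anchors fell in 8809 distinct bins, of which 8266 served a single lost loop, 512 served 2 and 31 served 3 or more. Bins shared by 2 lost loops held the CTCF motif in 44.5% (40.3 to 48.9) of cases and unshared bins in 30.6% (29.6 to 31.6). The 31 bins with 3 or more gave 38.7% (23.7 to 56.2), too few to place. The bin most often shared, chr2:43230001-43235000 in THADA, a gene disrupted in thyroid adenomas, was an anchor of 4 lost loops, 3 running left and 1 right, with spans from 250 kb to 405 kb, and held no motif. A bin in PLPP3, a lipid phosphate phosphatase gene, served 3 long loops of 1105 kb to 1300 kb, and a bin in ZNF487 served 3 loops of 65 kb to 165 kb. Of the 4692, 1212 lay inside another lost loop.

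Over the 23 chromosomes analysed, the share of wild-type control loops lost in both lines ran from 19.1% (16.4 to 22.1) on chromosome 13 to 43.1% (37.3 to 49.1) on the X. The share of control loops with any eGFP-YAP partner was also lowest on chromosome 13, 24.1%, and was 52.4% on the X and highest on chromosome 19, 57.9%. Per Mb there were 2.19 lost loops on chromosome 17 and 0.742 on the X. Their median span was 110 kb on chromosome 19, which is dense in genes, and 330 kb on chromosome 13, which is poor in them, and the motif share was 40.6% and 21.9% of anchors there.

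Of 3044 windows of 1 Mb, 1865 held the centre of a lost loop, 591 held 1 and 220 held 5 or more. The window with most, chr10:101000001-102000000, held 11. It contains TLX1 and LBX1, both homeobox genes, FGF8, a growth factor gene of the embryo, and BTRC, which encodes a ubiquitin ligase subunit. The wild-type lists held 20 loops there in control and 11 with sorbitol, and the eGFP-YAP lists 17 and 9. The lost loops of this window were short, 50 kb to 275 kb with a median of 130 kb. The window chr11:76000001-77000000, with WNT11 and EMSY, held 9 lost loops, and its lists 12 loops in wild-type control, 3 in wild-type sorbitol, 15 in eGFP-YAP control and 1 in eGFP-YAP sorbitol. The window chr6:133000001-134000000, with EYA4 and TCF21, both genes of developmental regulators, also held 9, and its lists 18, 3, 25 and 1 loops in the same order.

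**Figure D5:**
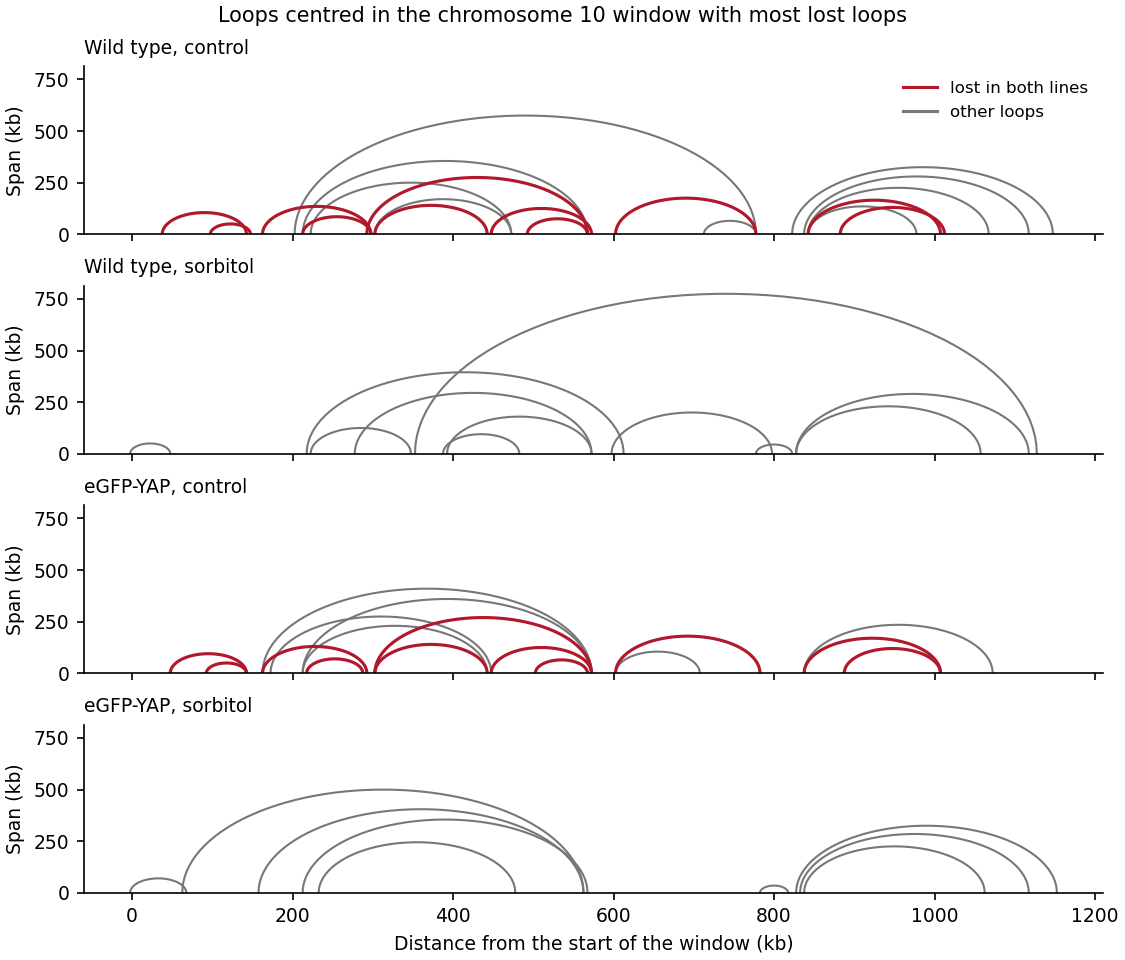
Arcs join the anchors of each loop centred in the chromosome 10 window, at their distance from the window's start in kb (horizontal axis), with arc height equal to the span in kb (vertical axis), for the 4 lists. Red arcs are the 11 loops lost in both lines and grey arcs all other loops. Both sorbitol lists hold loops in the window, 11 in wild type and 9 in eGFP-YAP. By the rule that chose the red arcs, none of these loops matches a red arc of its own line.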

How the data were processed

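In situ Hi-C loop lists of 4 conditions (14 samples by the labels) were used. Of the series' 32 samples, 18 were not used here. The deposited column headers are those of SIP, a loop caller that treats contact maps as images. Its version and settings, the aligner and the depth are not given in the sources used here. Per the submitters' processing notes the build is hg38, and 0 loops lay beyond the ends of hg38 chromosomes. Anchors are 5 kb bins. The peak score is the authors' value, used only to rank loops within a list. The probability of enrichment is a fraction given by the authors, with a lowest value of 0.900, and no further minimum was set. Anchors of 4 loops were listed right before left and were swapped. There were 0 per-sample columns left without a group.

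Matching, motifs and gene starts (GENCODE release 44, 19970 protein-coding genes) were computed in Python 3.11.15 with numpy 2.4.6, pandas 2.3.3 and scipy 1.17.1, and figures with matplotlib 3.10.9. The matching was tested on simulated lists. No test between conditions was made, with 1 list per condition. Loops were named by rank, the mean of their score percentiles in both control lists, with at most 1 per chromosome in each set and none from chromosome 8 or with unsequenced bases: the 8 highest convergent loops, the 6 highest with gene starts at both anchors, the 3 longest, the 3 most shared anchors and the 3 fullest windows, and for comparison 2 convergent loops of all 4 lists and 2 gained loops, the latter not reported here. The loops and gene lists were chosen with earlier results of these data known. Alternatives were matching at 5 kb and 25 kb, the upper 50% of each list by score, absence from both sorbitol lists, merged neighbours, loops free of unsequenced bases, eGFP-YAP coordinates, no motif mismatch, anchors widened by 5 kb on each side, all annotated genes and a 25 kb distance to sorbitol anchors.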

Additional observations from a re-analysis of the deposited data

How the results depend on the processing

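No paired analysis was possible because each condition is a single list with no replicate columns, and no replicate could be left out for the same reason. Matching at 5 kb gave 3471 lost loops, with the CTCF motif at 36.9% of anchors and 26.4% of anchors near a wild-type sorbitol anchor. Matching at 25 kb gave 6140 loops, with a median span of 225 kb, the motif at 27.7%, gene starts at 5.59% and 18.9% of anchors near a sorbitol anchor. The upper 50% of each list by score left 2681 lost loops, with a median span of 240 kb, the motif at 36.8%, convergent pairs at 77.8% and 14.3% of anchors near a sorbitol anchor. With eGFP-YAP coordinates the motif was at 42.1%, convergent pairs at 78.6%, gene starts at 7.06% and 24.2% of anchors near a sorbitol anchor. Without a mismatch the motif was at 7.84% of anchors (all bins, 0.901%) and 86.1% of 36 readable pairs converged. Anchors widened by 5 kb on each side held the motif in 60.6% (bins, 22.5%) and a gene start in 16.7% (bins, 8.66%). Counting all annotated genes gave starts at 14.1% of anchors (bins, 8.94%), and a distance of 25 kb put 34.5% of anchors near a wild-type sorbitol anchor (bins, 14.3%). The causes of these shifts were not tested. Absence from both sorbitol lists, merging neighbours and leaving out unsequenced bases gave 4600, 4692 and 4659 lost loops, and moved none of the other 5 values beyond its interval. Depth is unknown, so its effect on the shorter sorbitol lists could not be measured.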

Other observations

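The median GC content of lost anchors was 42.6% (42.5 to 42.8), close to the 42.4% (42.3 to 42.5) over all wild-type control loops. It was 39.7% over all sequenced 5 kb bins, 41.8% (41.7 to 41.96) at wild-type losses without an eGFP-YAP partner, 45.8% (45.2 to 46.4) at loops of all 4 lists and 49.1% (48.6 to 49.5) at gained loops. YY1 is a zinc finger protein often found at enhancers and promoters. The word AAGATGGCG, the core of its motif, searched on both strands, was in 2.28% (2.00 to 2.60) of lost anchors, 2.10% (1.94 to 2.27) of all wild-type control anchors and 1.68% of all bins. It was in 2.78% (1.85 to 4.18) of anchors of loops in all 4 lists and 6.36% (5.22 to 7.73) of gained anchors. Gained anchors also held more gene starts, so sequence and gene starts cannot be told apart there.

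Across the 23 chromosomes, Spearman's rho between lost loops per Mb and protein-coding genes per Mb was 0.493, and between the share of control loops lost in both lines and genes per Mb it was 0.235. Both are descriptions only, since the chromosomes share lists and gene density varies with base composition.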
